A study of Mus musculus with 2 samples.

Results

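The 5 calmodulin genes Calm2, Calm3, Calm4, Calm5 and Calml3 were taken by their symbols from the 40879 gene symbols of the deposited counts, and all 5 were present. They were selected on their read counts in these same 2 libraries, which were known when the genes were picked, so that their differences are a description and carry no test. The study compared the intestine of wild-type (WT) mice with that of mice heterozygous for Erap1, an aminopeptidase of the endoplasmic reticulum that trims peptides for antigen presentation. In the heterozygous mice, labelled ERAP1+/-, exons 6 and 7 of 1 allele were to be removed by Cre recombinase. The animals were C57BL/6 mice, 8 weeks old at the start, and the labels give no colitis induction or drug for the sequenced tissue. RNA of 3 mice per genotype was pooled and sequenced as 1 library per genotype, so that no difference below has a replicate check and the spread between mice is unknown.

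Calmodulin is the small calcium sensor of all animal cells. It takes up calcium through its EF-hand loops, changes shape, and then binds and switches kinases, phosphatases, pumps and myosins. In the mouse, Calm2 and Calm3 are separate genes for the same protein and are used in nearly every tissue. Calm4, also known as Scarf, and Calm5, also known as Scarf2, encode skin calmodulin-related factors of differentiating keratinocytes, and Calml3 encodes a calmodulin-like protein of stratified epithelia that serves as a light chain of myosin-10.

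Counted reads came to 8114826 for WT and 8907515 for the library labelled ERAP1+/-. Values are given as reads, as CPM (reads scaled to a common library total with trimmed mean of M values, or TMM, factors) or as log2(CPM + 1), and differences are the library labelled ERAP1+/- minus WT. Intervals are exact 95% intervals for a ratio or share of read counts and cover counting error only, since there is 1 library per genotype. The reads carry no molecular identifiers, so that copies of a fragment count as separate reads and the intervals may be too narrow. Erap1 itself had 229 reads in WT and only 2 in the library labelled ERAP1+/-, which is 0.730% of the WT level (95% interval of the ratio 0.000878 to 0.0267). This level goes against the label of a heterozygous animal. The reads come from the 3′ end of the transcript, outside the exons that were to be deleted, and so do not check the deletion itself. The name of the library is therefore used as a label only. Xist, the RNA of the inactive X chromosome, had 1635 and 6451 reads, so that the pools also differed in a transcript of females. Its part in the values below was not tested and cannot be told apart from genotype.

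The 5 genes lie on chromosomes 7, 13 and 17 (GENCODE M21 on GRCm38). Calm2 runs from 87433412 to 87446935 on chromosome 17 and Calm3 from 16915379 to 16924114 on chromosome 7, both in minus orientation. Both have 6 exons in their main transcript. Calml3 (3802896 to 3804316, minus strand), Calm4 (3837757 to 3838673, plus strand) and Calm5 (3854173 to 3854761, plus strand) sit together on chromosome 13 within 51.9 kb, and the main transcript of each of them has 1 exon. The cluster is on the chromosome of Erap1, 70.8 Mb from it.

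Calm4 and Calm5 stand next to each other in the same orientation, 15.5 kb apart, and their upstream sequences are almost the same. The RefSeq promoter table on GRCm38.p6 holds windows for Calm3, Calm4 and Calm5. The stretch that the Calm4 and Calm5 windows share ahead of both start sites is printed because it is the same in a gene with many reads in the WT library and in a gene with almost none. It covers 206 bases at chr13:3837551-3837756 for Calm4 and chr13:3853923-3854128 for Calm5, both on the plus strand and written 5′ to 3′. The capital letter marks the only position that differs, A130G, counted from 1 at the 5′ end of the stretch and with the base of Calm4 first.
Calm4: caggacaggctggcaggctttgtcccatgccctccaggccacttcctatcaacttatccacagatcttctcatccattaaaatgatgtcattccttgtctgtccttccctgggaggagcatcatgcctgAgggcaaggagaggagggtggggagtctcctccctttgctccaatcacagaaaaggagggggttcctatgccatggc
Calm5: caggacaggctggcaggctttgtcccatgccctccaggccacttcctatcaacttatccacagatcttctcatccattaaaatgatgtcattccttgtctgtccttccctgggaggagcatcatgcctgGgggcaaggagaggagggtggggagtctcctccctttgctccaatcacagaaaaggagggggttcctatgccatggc

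The stretch ends directly at the annotated start of Calm4 and 44 bases ahead of that of Calm5, and 99.5% of its bases are the same. It begins at the edge of the Calm5 window and was cut at the start of Calm4. How far the likeness runs past these edges was not measured. In the 250 bases ahead of their start sites, neither gene had a CG dinucleotide. Of 32851 promoter windows in the table, 7.87% had none, and the median was 6. Calm3 had 33 CG dinucleotides, more than 96.0% of the windows. With both strands searched, CCAAT was found in the Calm4 and in the Calm5 window, as in 33.8% of all windows, while TATAAA (12.4% of all windows) and TGANTCA (6.75%) were not found on either strand in those of Calm3, Calm4 or Calm5. A match of letters is a description of the window only.

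The similarity of Calm4 and Calm5 continued into the transcripts. Over 327 aligned coding bases they were 86.2% the same, while the coding sequence of Calm4 was 60.9% the same as that of Calm2, 62.4% as that of Calm3 and 61.4% as that of Calml3. Calm2 and Calm3, which encode the same protein, shared 82.6% of their 447 coding bases. Calml3 was nearer to them, with 75.4% and 78.7%. In the last 500 bases of the main transcripts, where the reads of this method lie, no window of 75 bases (the read length) of any of the 5 genes occurred in a transcript of another gene. Exact reads of full length from these 500 bases can thus be told apart in this annotation. Windows from other parts or other transcripts of the genes were not checked. With windows of 50 bases, 16 of 451 windows of Calm5 occurred in Calm4. The main Calm5 transcript is annotated for 31 bases past its stop codon and that of Calm4 for 331.

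Calm4 was almost entirely a gene of the WT library. There it had 2399 reads, beside 2 in the library labelled ERAP1+/-, which is 309 CPM against 0.215 CPM. On the log2(CPM + 1) scale the values were 8.27 and 0.28, a difference of -7.99. Without the added 1, Calm4 was 1436-fold lower (95% interval 397 to 11864), and the interval is wide because of the 2 reads. Among the 8013 symbols with a log2 value of at least 4 in 1 or both libraries, this was the 2nd lowest difference.

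Calml3, the neighbour of Calm4 at a distance of 33.4 kb, was also mostly a gene of the WT library. WT held 683 of its reads and the library labelled ERAP1+/- 24, or 87.9 CPM and 2.58 CPM. This is 34.1-fold lower (95% interval 22.7 to 53.5), with a difference of -4.63 on the log2(CPM + 1) scale. In contrast to Calm4, its reads in the library labelled ERAP1+/- were well above the 3 reads that a count of 0 allows.

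Calm5 was at the limit of detection in both libraries. WT held 1 read of it and the library labelled ERAP1+/- none. Since up to 3 reads may stand behind an observed 0, which is 0.386 CPM for WT and 0.322 CPM for the library labelled ERAP1+/-, no fold is given, and a difference was not detectable at this depth. In the WT library the 2399 reads of Calm4 stood beside 1 read of Calm5. The upstream stretches printed above differ at 1 position. The annotated main transcripts reach 331 bases past the stop codon for Calm4 and 31 for Calm5. The part of the upstream sequence or of the annotated ends in these counts was not tested.

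Calm2 and Calm3, which encode calmodulin itself, differed little between the libraries. Calm2 had 7537 reads in WT beside 7801 in the library labelled ERAP1+/-, or 970 CPM and 839 CPM. The ratio was 0.865 (95% interval 0.838 to 0.892), a difference of -0.21 on the log2(CPM + 1) scale, and with scaling by the total count alone the ratio was 0.943 (0.913 to 0.973). Calm3 had 2751 and 3147 reads, or 354 CPM and 338 CPM. Its ratio was 0.956 with a 95% interval of 0.908 to 1.01 that includes 1, and with scaling by the total count the ratio lay on the other side of 1, at 1.04 (0.990 to 1.10).

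**Figure D1:**
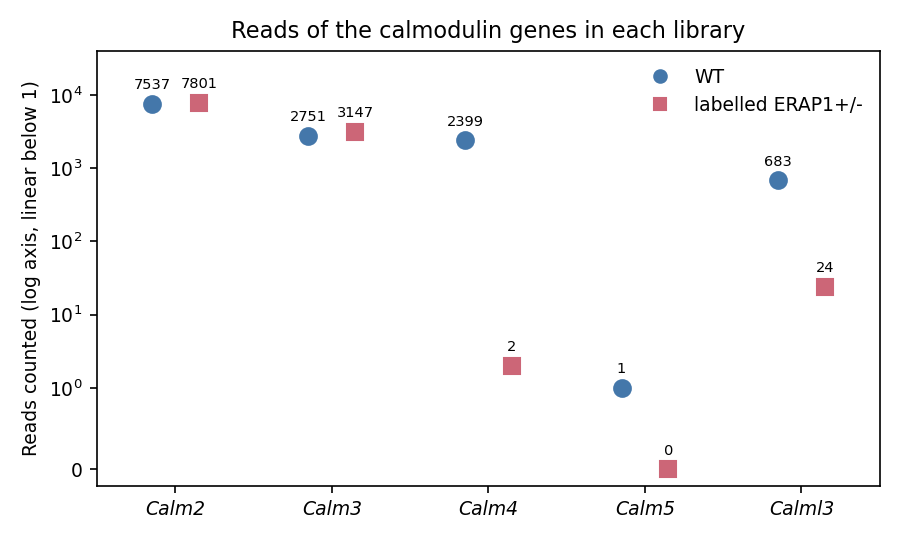
Reads counted for each of the 5 calmodulin genes in the WT library (circles) and in the library labelled ERAP1+/- (squares), with 1 library per genotype and the count above each point; the vertical axis is logarithmic and turns linear below 1. Calm2 and Calm3 have similar counts in both libraries, Calm4 drops from 2399 to 2 and Calml3 from 683 to 24, and Calm5 has 1 and 0.

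By a rule of a difference past 2-fold on the log2(CPM + 1) scale and a value of at least 4 in 1 or both libraries, 2 of the 5 genes, Calm4 and Calml3, were lower in the library labelled ERAP1+/- and none was higher. Of the 5 genes, 4 passed the level of 4 and Calm5 did not. Over all 8013 symbols past that level, 5.34% met the rule in either direction, 3.96% being lower and 1.39% higher. Nothing is read from the count of 2 against this share, since the genes were picked with these differences known. Calm4 and Calml3 met the rule under each scaling, filter and threshold tried.

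**Figure D2:**
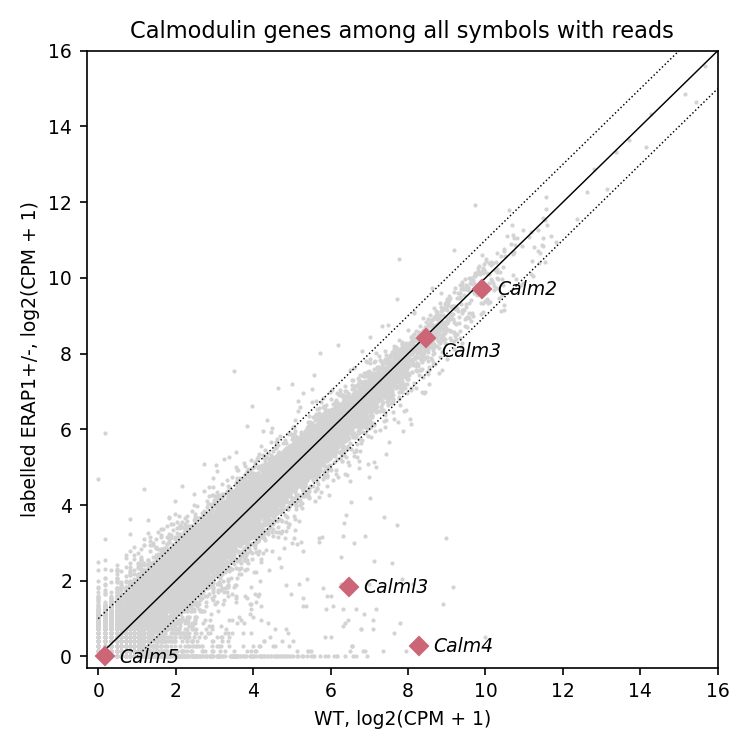
Level of every symbol with reads in the WT library (horizontal) and in the library labelled ERAP1+/- (vertical), both as log2(CPM + 1), with the calmodulin genes as diamonds; the solid line is equality and the dotted lines are 2-fold. Calm2 and Calm3 lie near the line, Calm4 (8.27 and 0.28) and Calml3 (6.47 and 1.84) lie far below it, and Calm5 is near 0 in both.

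With most reads of Calm4 and Calml3 in the WT library, the make-up of the family differed. The 5 genes held 13371 reads in the WT library, of which Calm2 gave 56.4% (95% interval 55.5% to 57.2%), Calm3 20.6% (19.9% to 21.3%), Calm4 17.9% (17.3% to 18.6%) and Calml3 5.11% (4.74% to 5.49%). In the library labelled ERAP1+/- they held 10974 reads. There, Calm2 gave 71.1% (70.2% to 71.9%), Calm3 28.7% (27.8% to 29.5%), Calml3 0.219% (0.140% to 0.325%) and Calm4 0.0182% (0.00221% to 0.0658%). These are shares of reads, which the method takes near the 3′ end of each transcript, and were not divided by length. The summed reads of the 5 genes had a ratio of 0.686 (0.668 to 0.703), while those of Calm2 and Calm3 alone had a ratio of 0.889 (0.865 to 0.913).

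Outside the 5 genes, Calml4, which encodes a calmodulin-like light chain of the brush border complex that links microvilli, was past the level of 4 and within 2-fold. It had 827 and 1107 reads, and its ratio was 1.12 (95% interval 1.02 to 1.23), or 1.22 (1.11 to 1.34) when only the total count was used for scaling.

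**Figure D3:**
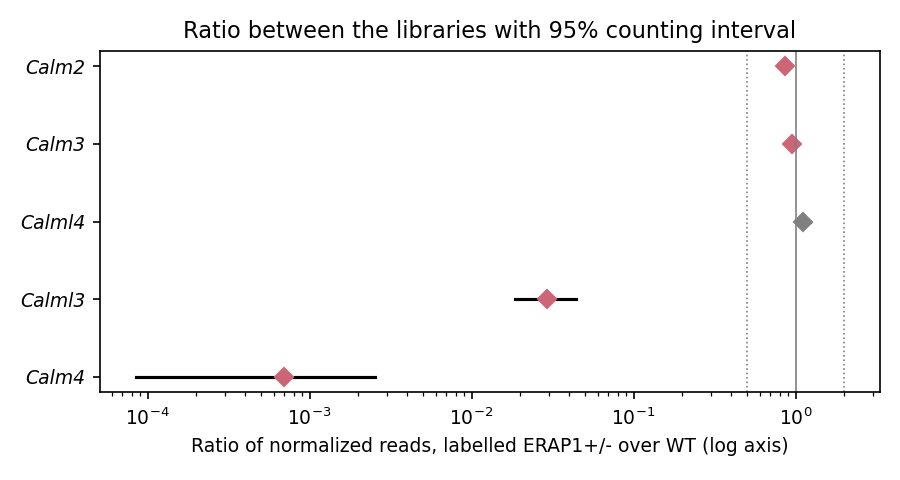
Ratio of normalized reads in the library labelled ERAP1+/- over WT on a logarithmic axis for 4 of the calmodulin genes (red) and for Calml4 (grey), with exact 95% intervals of counting error; the dotted lines are 2-fold. Calm5 is left out because both counts are under the limit of detection, and only Calm4 (0.000696) and Calml3 (0.0294) lie outside the 2-fold lines.

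Most genes around the cluster did not share the size of these differences, with Akr1c18 as the exception. Of 34 annotated genes within 500 kb of it, 18 were in the files, and 12 of these had at least 10 reads over both libraries. The 10 that are not calmodulin genes had a median difference of -0.33 on the log2(CPM + 1) scale, and 7 of them passed the level of 4, none of which differed more than 2-fold. The nearest on the side of Calm5 was Net1, a guanine nucleotide exchange factor for RhoA, with 1094 and 845 reads and a difference of -0.63. Gdi2, which recycles Rab proteins, had 2100 and 2440 reads and a difference of -0.04. On the far side of Net1, Tubal3, a tubulin-like gene, had 49 and 81 reads. Under the level of 4, Akr1c18, a progesterone-metabolizing reductase, had 64 and 4 reads. Its difference of -2.69 was the farthest from 0 in the region after Calm4 and Calml3. Without the added 1, the ratio of Akr1c18 was 0.0522 (95% interval 0.0138 to 0.140). This interval overlaps that of Calml3 (0.0187 to 0.0440). The gene model Gm40655, which overlaps Calm4 on the same strand, had 0 reads in both libraries.

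**Figure D4:**
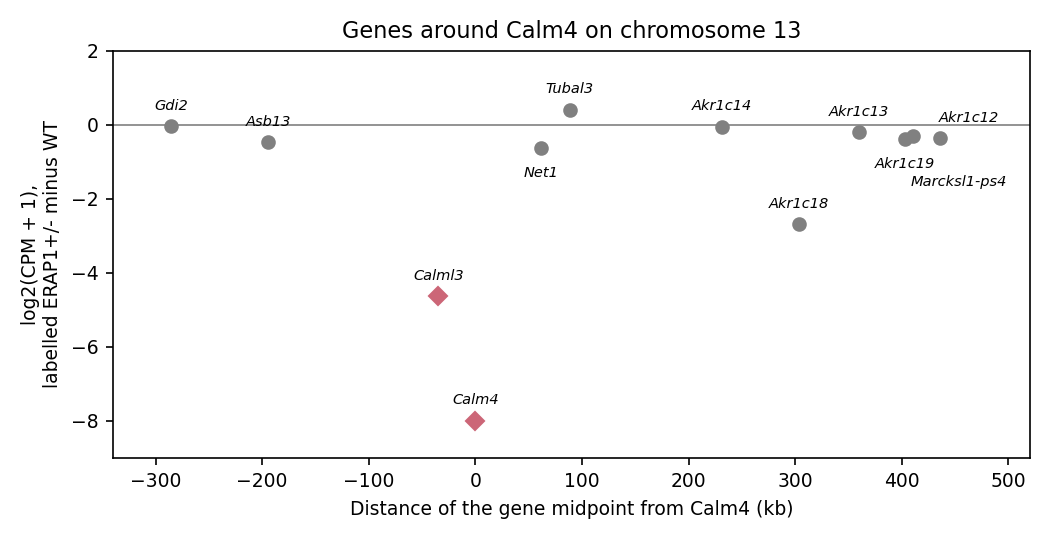
Difference in log2(CPM + 1), library labelled ERAP1+/- minus WT, for each gene with at least 10 reads over both libraries within 500 kb of the cluster, against the distance of its midpoint from Calm4 in kb; diamonds are calmodulin genes and circles other genes. Calm4 (-7.99) and Calml3 (-4.63) lie below all others, of which Akr1c18 is at -2.69 and the rest lie between -0.63 and 0.41.

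Genes that epidermis and other stratified epithelia use moved with Calm4 and Calml3. Of 31 listed markers of suprabasal epidermis, 30 had at least 10 reads and all 30 were lower in the library labelled ERAP1+/-, with a median difference of -4.93 on the log2(CPM + 1) scale (-4.73 with genes without a read set at 3 reads). Their summed level was 5366 CPM in WT beside 1298 CPM in the library labelled ERAP1+/-. The latter came mostly from Tgm3, a transglutaminase with 10856 and 11560 reads, the only 1 of the 24 markers past the level of 4 that was not more than 2-fold lower. All the others but Casp14 reached that level in the WT library only, so that the filter itself set them lower. Over all 8013 symbols past the level, 3.96% were more than 2-fold lower. Of all 16142 symbols with at least 10 reads, 8026 were below 0. In the library labelled ERAP1+/-, 14 of the 30 had no read, among them Klk7, Hrnr, Flg2, Ivl, Dsc1 and Dsg1b, while none was at 0 in the WT library. Flg, which encodes filaggrin, had 7952 and 4 reads, Spink5, a protease inhibitor, had 4453 and 24, Lor, which encodes the cornified envelope protein loricrin, had 1528 and 5, and Krtdap had 3681 and 15.

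The lists of deeper and wetter stratified epithelium were lower as well. All 16 basal markers were below 0 with a median of -2.73 (-2.68 with genes without a read at 3 reads). Of the 11 past the level of 4, 9 were more than 2-fold lower, beside 3.96% of all symbols past it. These 9, but for Krt6a and Sfn, reached the level in the WT library only. The summed level of the 16 was 1433 CPM in WT beside 462 CPM in the library labelled ERAP1+/-. The latter came mostly from Dst (150 CPM), Perp (135 CPM) and Sfn (127 CPM). The markers past the level that were not more than 2-fold lower were Perp (2089 and 1260 reads) and Dst (1385 and 1394). Lgals7, a galectin of stratified epithelia, had 845 and 6 reads, and the keratin genes Krt17 and Krt15 had 593 and 26 and 296 and 18. All 5 markers of non-keratinized stratified epithelium past the level of 4 were more than 2-fold lower, and all 5 reached that level in the WT library only. Over 7 genes the summed level was 694 CPM against 16.4 CPM, and Crct1 had 783 reads and 0. Krt4 and Krt13, a keratin pair of wet stratified epithelium, had 1056 and 9 and 1631 and 94 reads. In bulk tissue, fewer cells of a type and less RNA per cell cannot be told apart, and the part of these epithelia in the values of Calm4 and Calml3 was not tested.

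Genes of skeletal muscle were lower as well. Of 20 listed markers, all were below 0 with a median of -4.98 (-4.78 with the 1 gene without a read at 3 reads), and the summed reads of the 20 were 13222 and 326. All 16 past the level of 4 were more than 2-fold lower, but all 16 reached that level in the WT library only. Over all symbols past the level, 3.96% were more than 2-fold lower. Ttn, the spring protein titin, had 2154 and 26 reads, and Myh1, a fast myosin heavy chain, 909 and 1. The part of muscle in the values of the calmodulin genes was not tested. Of 12 smooth muscle markers, all were past the level of 4 and below 0 with a median of -0.91, and 4 of them (Cald1, Tagln, Myh11 and Mylk) passed the rule. Only 2 of them did so when the total count alone was used for scaling. Their summed level was 12828 CPM and 6443 CPM. Markers of enteric neurons and glia had a median of 0.57 over 15 genes, with 12 above and 3 below 0, and a summed level of 161 CPM and 243 CPM. Of the 6 past the level of 4, Vip, a neuropeptide gene, was the only 1 past the rule, with 129 and 348 reads, beside 5.34% of all symbols. With total count scaling 3 of the 15 passed it, and with a pseudocount of 0.1, 2. The labelled tissue was present in both libraries, since the 16 markers of intestinal epithelium had a summed level of 15267 CPM and 14172 CPM with a median of -0.31 (-0.19 when scaled by the total count). Lgals4, a galectin of enterocytes, had 22956 and 27348 reads. Muc2, the main mucin of goblet cells, went from 12020 to 32939 and Chga, a marker of enteroendocrine cells, from 271 to 822, while Krt20, a keratin of mature enterocytes, had 5156 and 2674.

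The level of Calm4 in the 2 libraries was nearest to that of Cstdc5, a stefin-like protease inhibitor, with 1903 and 1 reads. Nearness was measured as the Euclidean distance over the log2(CPM + 1) values of the 2 libraries, and was 0.36 for Cstdc5. Lor (0.73), Myl3 (0.79), Myh8 (0.94) and Krtdap (1.26) followed, of which Lor and Krtdap are genes of the epidermis and Myl3 and Myh8 encode a myosin light chain and a myosin heavy chain of muscle. The genes nearest to Calm2 were Ceacam1 (0.03), an adhesion molecule of epithelium and immune cells, Sycn (0.10), Itm2b (0.12), Krt8 (0.15), a keratin of simple epithelium, and Col1a2 (0.15), a collagen chain. For Calml3, for which the measure was added after its values were seen, they were Ly6g6c (0.07), the basal keratin gene Krt17 (0.22), Dmkn (0.52), Psca (0.52) and Krt79 (0.60). With 2 libraries this is a likeness of level and not of regulation.

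The partners of calmodulin are given by their roles, with the share past the rule over all symbols, 5.34%, as the background. Of 24 calmodulin-dependent kinases with at least 10 reads, 12 passed the level of 4, 1 was more than 2-fold lower and none was more than 2-fold higher, with a median difference of -0.15 (-0.03 when scaled by the total count) beside 0.00 over all 16142 symbols with that many reads. The 1 was Mylk, the myosin light chain kinase of smooth muscle, with 18018 and 10263 reads and 2.10-fold lower (95% interval 2.05 to 2.15), which with scaling by the total count was within 2-fold. Calcineurin, the calmodulin-dependent phosphatase, with its regulators and NFAT targets had 12 genes with enough reads, of which 8 passed the level and none met the rule. Their median was -0.06, or 0.06 with scaling by the total count, which turns its sign. Of 11 phosphodiesterases, cyclases, nitric oxide synthases and calcium pumps that calmodulin regulates, 4 passed the level and none met the rule, or 1 with scaling by the total count, and the median was -0.23 (-0.14).

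Proteins that hold or bind calmodulin through IQ motifs and like sites showed 2 genes lower and 2 higher among 24 past the level, which is 16.7% beside 5.34% over all symbols, with a median of -0.27 over 29 genes (-0.15 with scaling by the total count). Pcp4, a small protein that speeds the exchange of calcium on calmodulin, had 963 and 307 reads and was 3.76-fold lower (95% interval 3.30 to 4.28). Cald1, which encodes caldesmon, an actin-binding protein of smooth muscle that calmodulin releases, had 11048 and 5770 reads and was 2.29-fold lower (2.22 to 2.37). Cald1 and Mylk were also among the smooth muscle markers given above. Gap43, a calmodulin-binding protein of growing axons, went from 58 to 154 reads with a ratio of 2.22 (1.63 to 3.05).

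EF-hand proteins outside the calmodulins include other calcium sensors and buffers. Of 29 with at least 10 reads, 21 passed the level, and 2 of these were more than 2-fold lower and 1 was higher, which is 14.3% beside 5.34% over all symbols, with a median of -0.04 that became 0.05 with scaling by the total count. Tnnc2, the troponin C of fast skeletal muscle, had 898 and 11 reads and was 97.7-fold lower (54.4 to 196), and is itself a skeletal muscle marker. Rcn1, a calcium-binding protein of the endoplasmic reticulum, had 291 and 144 reads and was 2.42-fold lower (1.97 to 2.97). Calb2, which encodes calretinin of neurons, went from 57 to 154 reads with a ratio of 2.26 (1.66 to 3.11).

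**Figure D5:**
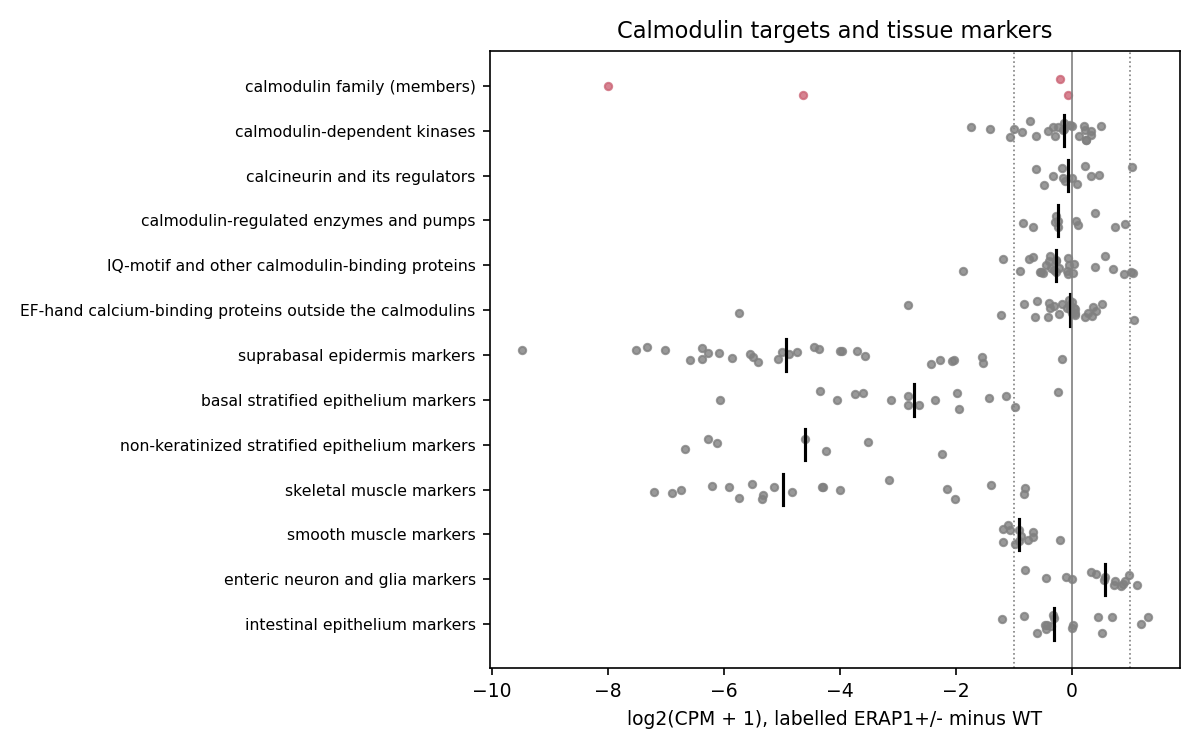
Difference in log2(CPM + 1), library labelled ERAP1+/- minus WT, for each gene with at least 10 reads in the calmodulin family (red) and in lists of calmodulin partners, other EF-hand proteins and tissue markers (grey, with the median as a bar); dotted lines are 2-fold. The partner lists have medians between -0.27 and -0.06 and the EF-hand list -0.04, while the suprabasal, basal and non-keratinized epithelium and skeletal muscle lists, at -4.93, -2.73, -4.61 and -4.98, lie far to the left of these. Calml3 (-4.63) is within the range of each of these 4 lists, and Calm4 (-7.99) lies beyond every listed gene but Flg (-9.48).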

How the data were processed

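One library per genotype, each from RNA pooled from 3 mice, was prepared with a 3′ mRNA-seq kit (QuantSeq FWD) and sequenced as single reads of 75 bases. The authors deposited raw counts, whole numbers of reads per gene symbol, for each library. Their methods name STAR with HTSeq-count and also Bowtie2 with RSEM on GRCm38, and the submitters' processing notes name Bowtie2, RSEM and GRCm38. Which of them made the deposited counts is not stated.

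The TMM factors, from edgeR (version 4.0.16, run in R version 4.3.3), were 0.958 in WT and 1.04 in the library labelled ERAP1+/-. Counting error was expressed as exact conditional binomial intervals, for which scipy version 1.17.1 was used. With 1 library per genotype no quasi-likelihood test could be fitted and no p-value is given. Alternatives were size factors from DESeq2 (version 1.42.0), total count scaling, TMM without epidermis and muscle lists, a pseudocount of 0.1, other filters, a 4-fold threshold and thinning of the larger library to the total of the smaller.

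The calmodulin genes and the gene lists were chosen with earlier results of these data known. Genes named are the calmodulin genes, Calml4, Erap1, Xist, neighbours within 500 kb with at least 10 reads, the 5 nearest patterns of Calm4 and of Calm2, and from each list up to 4 of those past the rule with the largest differences and, for tissue lists, the 3 with the most reads; not all of these are printed. Other list genes, the nearest patterns of Calml3 and Gm40655 were named after their values were seen. Coordinates are from GENCODE M21, and coding identity is from global alignment (Biopython 1.88). Protein sequences and the promoters of Calm2 and Calml3 were not analysed here, and some other genes of the lists and 1 alternative that rests on them are not reported here.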

Additional observations from a re-analysis of the deposited data

How the results depend on the processing

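No paired analysis was possible because only 1 library stands for either genotype, and for the same reason no library could be left out. Calm4 and Calml3 were the 2 genes past the rule under each alternative. For Calm4 the difference on the log2 scale was between -8.00 and -7.92 with the other scalings and after thinning, and -9.94 with a pseudocount of 0.1. For Calml3 it was between -4.67 and -4.53, and -5.04 with that pseudocount. With scaling by the total count, Calm2 moved to -0.085 and Calm3 changed sign to 0.059, because that scaling shifts the median of all symbols past the level from -0.03 to 0.11. The number of symbols past the rule was 428 (111 higher and 317 lower). A minimum of 10 reads in either library gave 1390 (482 and 908). Leaving out the filter gave 1434 (482 and 952), and a 4-fold threshold gave 160 (16 and 144). With scaling by the total count, 166 were higher and 248 lower, or 59.9% lower against 74.1%. Of 84 list medians recomputed, 79 moved by less than the median counting error of the genes in the list and 5 by more. Of 96 counts of list genes past the rule, 79 were close to the reported count and 17 moved further from it, most of them counts of 4 or fewer. With a pseudocount of 0.1, the suprabasal, basal and non-keratinized medians were -7.44, -3.44 and -6.72. Calm5 is under the limit of detection in both libraries, and whether its short annotated end bears on that was not tested. The 2 reads of Calm4 in the library labelled ERAP1+/- limit its fold.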
